A study of Homo sapiens with 2 samples.

Results

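The genes described here encode the proteasome, its inducible immune form, and the proteins that cap, inhibit or assemble it. They were all genes of the deposited table whose symbol is PSM, a letter from A to G and a number, and 48 of the 36601 listed genes met that rule. The cells came from organoids of colon type, for which the source was 1383D6, a human line of induced pluripotent stem cells that is established in culture. One organoid library was left without cytokines (CNT) and the other had received TNF-α, IFN-γ and IL-1β, together called 3CK, for 8 days. The growth protocol, which carries no difference between the libraries, took the cells through activin A and FGF2 and then EGF, forskolin, PD98059, 5-aza-2'-deoxycytidine and an agent given as A-83, where the text used here ends. Cells were captured with a 3' droplet chemistry, in which a molecule counts once through its unique molecular identifier (UMI). There was 1 library per condition and 1 cell line, so no value below has a replicate check, no test was made, and an effect of the cytokines and a difference between the cultures cannot be told apart. Intervals in brackets are 95% intervals for counting error only.

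After filtering, 2487 CNT and 1398 3CK cells remained, and no barcode was shared. Epithelial cells were those with at least 2 EPCAM UMIs per 10000 (1660 CNT and 1016 3CK cells, 76172762 and 70107004 UMIs). Mesenchymal cells had at least 5 UMIs of COL1A1, COL1A2 and COL3A1 per 10000 and less than 1 of EPCAM (574 and 124 cells, 19648485 and 9115881 UMIs). The 3CK cells were the deeper ones, with a median of 72198 against 37785 UMIs in the epithelial and 65363 against 23450.5 in the mesenchymal class. Both classes showed most of their markers: EPCAM stood at 1097 and 959 CPM (counts scaled in the usual way by the total UMIs of the class) in the epithelial and at 20.5 and 17.2 CPM in the mesenchymal cells of CNT and 3CK, and DCN, a stromal matrix gene, at 1210 CPM in both mesenchymal sums. The mesenchymal cells also held the keratin KRT18 (4930 and 6968 CPM), and 497 CNT and 49 3CK epithelial cells passed the collagen minimum too. Markers of other cells moved with the libraries. The 5 hepatic markers, among them TTR, summed to 94449 CPM in CNT and 30653 CPM in 3CK epithelial cells. The 12 leukocyte markers summed to 57.9 and 67.5 CPM in epithelial and to 83.6 and 233 CPM in mesenchymal cells, where TYROBP stood at 27.1 and 87.9 CPM, PTPRC at 0.56 and 3.62 CPM, MS4A1 at 0 in both libraries and CD3E at 0 in 3CK. Their part in the mesenchymal values was tested only by leaving such barcodes out, with the result given beside those values.

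The proteasome is a barrel of stacked α and β rings that cuts ubiquitin-tagged proteins into peptides, and only some of its β subunits carry a cutting site. Interferon-γ is known to make cells build a variant, the immunoproteasome, in which PSMB8, PSMB9 and PSMB10 take the places of PSMB5, PSMB6 and PSMB7 and change which peptides are made for display on MHC class I. The regulatory particle at the barrel's end, with its ring of ATPases, unfolds substrates, whereas the PSME proteins are alternative caps, of which the interferon-inducible PA28 complex is built from PSME1 and PSME2.

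Stretches around the start sites are shown because 5 of these genes hold the same 10 letters there. RefSeq start windows on GRCh38.p14, running from 250 bases before to 50 after a start, were found for 42 of the 48 genes (51 windows). Windows were searched on both strands for GAAA, any 2 bases and GAAA again, a paired form of the interferon regulatory factor motif. It occurred in 3.57% of all 35116 windows of that length and in 7 of the 51, those of PSMA4, PSMB4, PSMB8, PSMB10, PSME1, PSME2 and PSMG4. The commonest form among these matches, GAAAGCGAAA (TTTCGCTTTC on the other strand), picked after they were seen, occurred in 35 of 35116 windows (0.0997%) and in 5 of the 51. The lines below give 80 bases before and 20 after the start, 5′ to 3′ on the gene's strand, with this form in capitals. They are chr6:32844028-32844127 (minus strand) for PSMB8, chr16:67936831-67936930 (minus) for PSMB10, chr14:24136114-24136213 (plus) for PSME1, chr14:24146591-24146690 (minus) for PSME2 and chr6:3258867-3258966 (plus) for PSMG4. PSMB9 at chr6:32854112-32854211 (plus) and PSMB5 at chr14:23035201-23035300 (minus) are given for comparison.
PSMB8: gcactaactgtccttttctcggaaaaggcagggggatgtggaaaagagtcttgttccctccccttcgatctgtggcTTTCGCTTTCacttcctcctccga
PSMB10: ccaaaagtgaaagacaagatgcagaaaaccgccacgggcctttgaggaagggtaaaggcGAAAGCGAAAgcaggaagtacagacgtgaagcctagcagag
PSME1: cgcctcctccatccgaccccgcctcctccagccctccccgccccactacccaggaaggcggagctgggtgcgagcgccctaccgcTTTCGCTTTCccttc
PSME2: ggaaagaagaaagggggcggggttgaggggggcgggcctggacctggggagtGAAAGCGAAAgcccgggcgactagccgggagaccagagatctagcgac
PSMG4: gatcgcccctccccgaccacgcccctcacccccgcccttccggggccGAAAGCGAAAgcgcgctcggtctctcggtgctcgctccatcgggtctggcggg
PSMB9: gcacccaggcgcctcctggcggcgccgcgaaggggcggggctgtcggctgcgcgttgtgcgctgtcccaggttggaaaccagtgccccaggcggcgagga
PSMB5: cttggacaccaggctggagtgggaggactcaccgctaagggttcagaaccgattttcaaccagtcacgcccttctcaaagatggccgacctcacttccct
In PSMB8 the letters span the printed start, in PSME1 they lie within the first transcribed bases, and in PSMB10, PSME2 and PSMG4 just upstream of the start. Another PSMB8 start window, at chr6:32844630-32844929 (minus strand), held neither the paired form nor the letters in capitals. The window of PSMB9, which had the largest ratio of all members, held neither form, and that says only that the letters are not in this window. The STAT palindrome TTCNNNGAA occurred in 8 of the 51 windows against 7.66% of all windows, among them the window of PSMB8 printed here and one of PSMB5 that is not printed, and the NF-κB form (GGGA, any base, TTTCC) in none of the 51 against 0.558%. A match is a description of letters, and binding was not measured.

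The inducible catalytic subunits separated the libraries most. In epithelial cells PSMB8, PSMB9 and PSMB10 together went from 57.1 CPM in CNT to 1414 CPM in 3CK, a 24.8-fold difference, and in mesenchymal cells from 183 to 1643 CPM, an 8.97-fold difference. Per gene, a fold of 2 or more (a log2 ratio of at least 1, 3CK over CNT) is called higher below, with a minimum of 10 CPM for the higher library of that class. The members past it in the higher direction were 8 of 46 in epithelial cells (PSMB8, PSMB9, PSMB10, PSME1, PSME2, PSMA1, PSMA4, PSMA6), where 7.88% of all 9786 genes were, and 7 of 46 in mesenchymal cells (the same without PSMA1), where 4.8% of 10272 genes were. In the lower direction no member was past it in either class, against 7.62% and 9.59% of all genes. Scaling by edgeR's TMM factors moved the median of all mesenchymal genes from -0.12 to 0.06 and the higher share of the calls from 33.4% to 47.5%. The members called higher became 10 of 46 in epithelial cells, where 798 of all 9786 genes were. In mesenchymal cells they became 8 of 46, where 630 of 10272 genes were. With the scaling total taken without the 50 most abundant, the ribosomal and the mitochondrial genes, 7 of 46 members were called higher in each class. PSMA1 was the one lost in epithelial cells. Under that total 676 of all 9786 genes in epithelial and 468 of 10272 in mesenchymal cells were called higher.

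**Figure D1:**
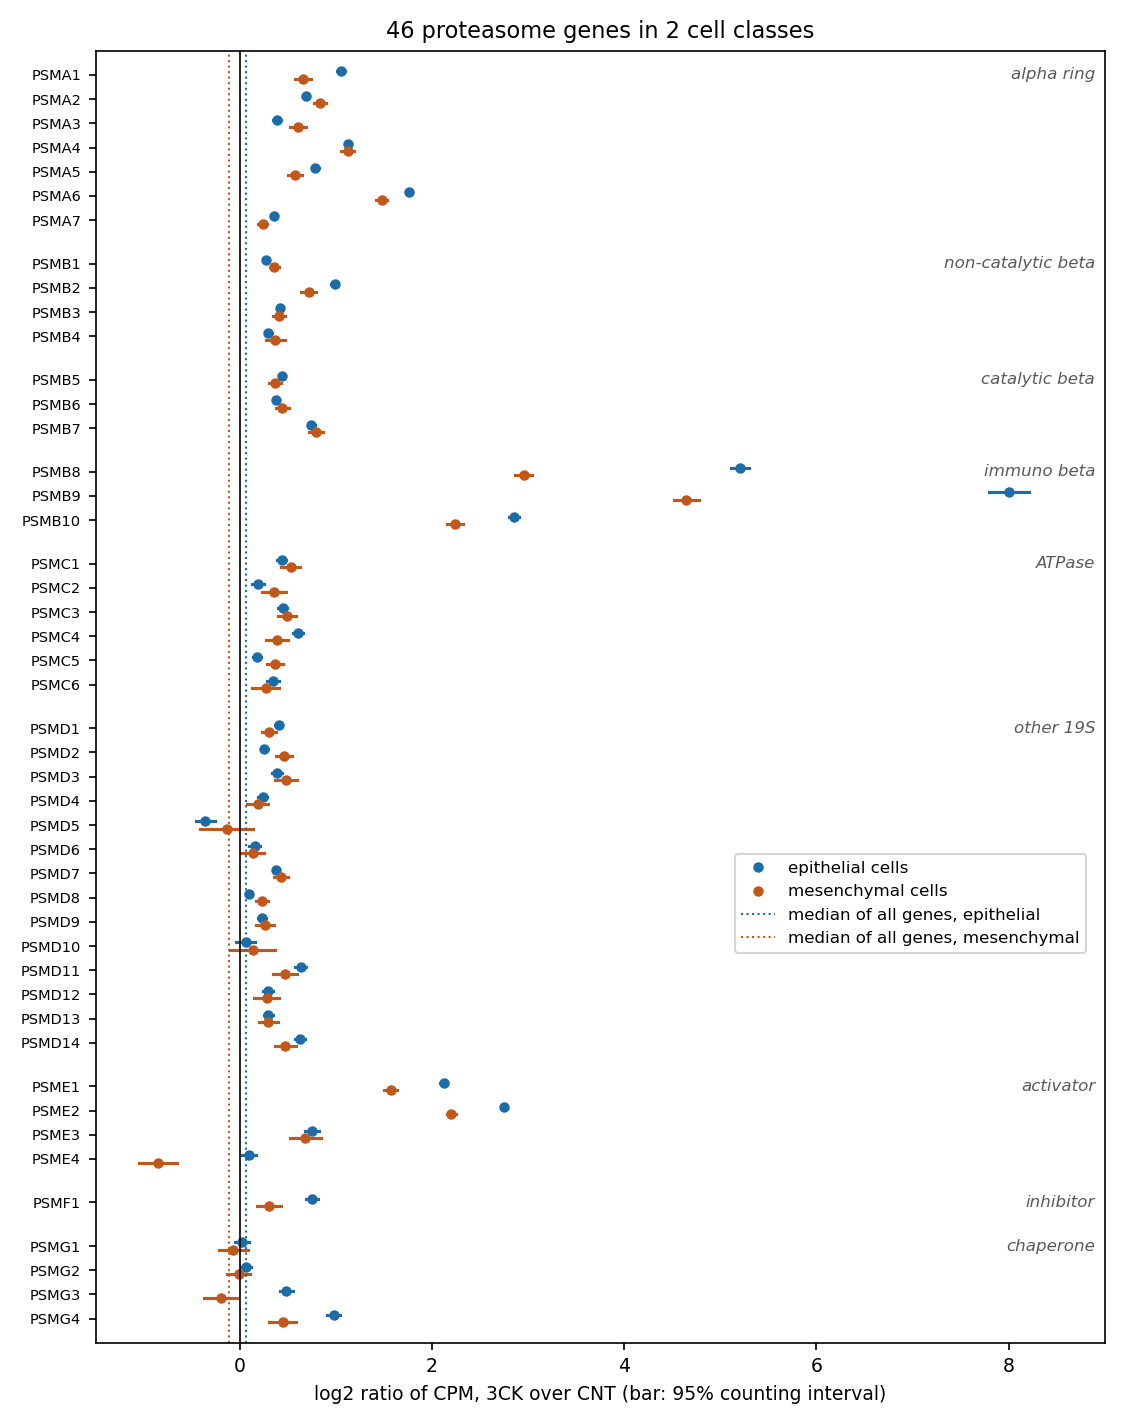
Log2 ratio of CPM, 3CK over CNT, for the 46 proteasome genes with at least 10 CPM, in epithelial (blue) and mesenchymal (orange) cells. Bars are 95% counting intervals and dotted lines the medians of all genes (0.07 and -0.12). PSMB9, PSMB8, PSMB10, PSME2 and PSME1 lie farthest to the right and PSME4 in mesenchymal cells farthest to the left.

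PSMB9, the inducible counterpart of the caspase-like subunit PSMB6, is on chromosome 6 at 32844136-32859851 (GRCh38, GENCODE 44). Its epithelial sum was 188 UMIs in CNT (2.47 CPM, 2.13 to 2.85) and 44265 in 3CK (631 CPM, 626 to 637). The 256-fold difference (log2 8.00, 7.79 to 8.21) ranked 11 of the 9786 genes. In mesenchymal cells PSMB9 had 541 and 6290 UMIs, 27.5 and 690 CPM, and a log2 ratio of 4.65 (4.52 to 4.78), rank 38 of 10272. The classes were far apart in CNT and close in 3CK. The epithelial ratio depended on how the cells were taken: it was 9.11 with stricter markers (at least 4 EPCAM and under 1 collagen UMIs per 10000) and 7.58 with equal weight per cell.

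PSMB8, the counterpart of the chymotrypsin-like subunit PSMB5, is on the same chromosome as PSMB9, on the opposite strand, at 32840717-32844679. It had 998 and 33851 UMIs in epithelial cells, which is 13.1 CPM in CNT and 483 CPM in 3CK (log2 5.20, 5.11 to 5.30). With equal weight per cell this ratio was 4.19. In mesenchymal cells it stood at 72.6 and 562 CPM (log2 2.95, 2.87 to 3.04). The bodies of PSMB8 and PSMB9 as annotated in GENCODE 44 overlap by 544 bases at their 5′ ends, whereas 3′ tags come from the far ends of both genes. The RefSeq start of PSMB9 printed above (in chr6:32854112-32854211) differs from its GENCODE start. It lies inside the annotated body of PSMB9, downstream of the overlap. Whether the counting used strand is not given in the sources used here.

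PSMB10, which replaces the trypsin-like subunit PSMB7, is on chromosome 16 at 67934506-67936864. It was the most abundant inducible subunit in CNT, at 41.5 CPM in epithelial and 83.0 CPM in mesenchymal cells. In 3CK it reached 299.7 and 391 CPM, with log2 ratios of 2.85 (2.80 to 2.91) and 2.24. Its ratio was thus the smallest of the 3 in both classes.

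The standard catalytic subunits were also higher in 3CK, by less than the called fold in the values below. PSMB5 was at 229.7 CPM (CNT) and 312 CPM (3CK) in epithelial cells (log2 0.44), and at 279 and 359 CPM in mesenchymal cells (0.37). PSMB6 was at 249.6 and 325 CPM in epithelial cells (0.38) and at 233 and 317 CPM in mesenchymal cells (0.44). For PSMB7 the values were 152 and 255 CPM in epithelial (0.75) and 183 and 317 CPM in mesenchymal cells (0.80), where it passed the fold (1.05) without the barcodes holding a leukocyte transcript. None of these 3 genes was lower in 3CK in either class. UMIs are counted per molecule and do not grow with transcript length, but capture can differ between genes, so levels of different genes are approximate and shares are compared mainly between libraries.

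**Figure D2:**
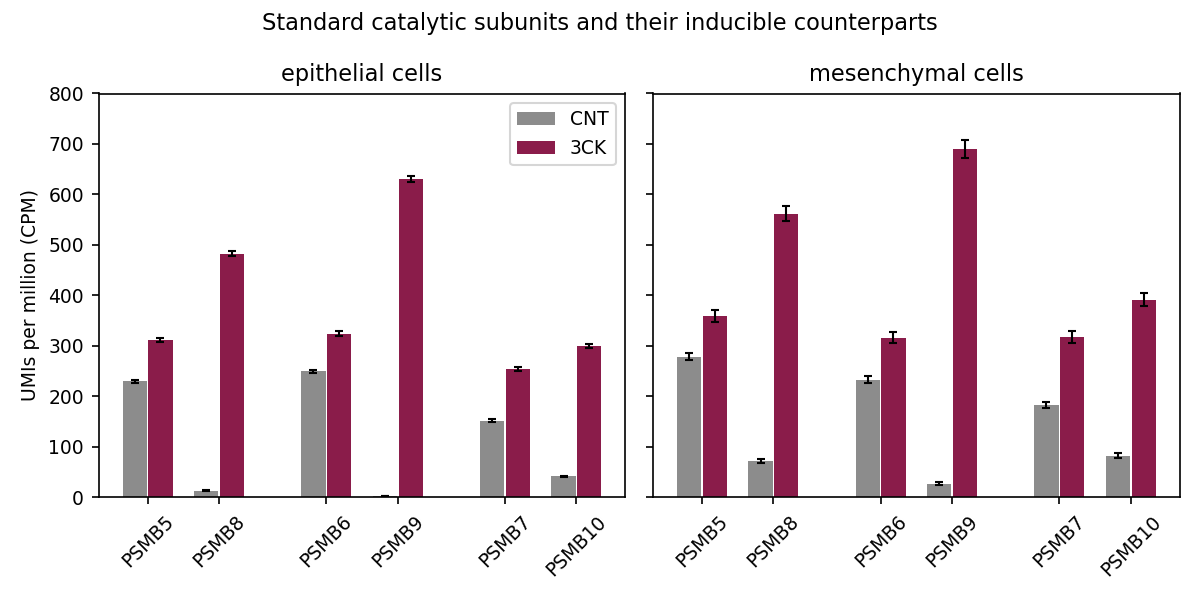
CPM of each standard catalytic subunit beside its inducible counterpart in CNT (grey) and 3CK (dark red), with exact 95% Poisson intervals as bars. In CNT each inducible gene is below its standard partner in both classes, and in 3CK PSMB8, PSMB9 and PSMB10 are above theirs, with PSMB9 at 631 and 690 CPM.

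Of all UMIs of the 6 catalytic genes, the inducible ones made up 8.29% (8.06 to 8.53) in CNT and 61.3% (61.1 to 61.6) in 3CK epithelial cells, a difference of 53.0 percentage points. The mesenchymal share went from 20.9% (20.3 to 21.5) to 62.3% (61.7 to 62.9), by 41.5 points. The CNT classes were apart by far more than counting error and the 3CK classes were close. By pair, PSMB9 made up 0.979% of PSMB9 and PSMB6 in CNT and 66.1% in 3CK epithelial cells, and 10.6% and 68.5% in mesenchymal cells. PSMB8 made up 5.40% and 60.7% of PSMB8 and PSMB5 in epithelial, and 20.7% and 61.0% in mesenchymal cells. For PSMB10 with PSMB7 the shares were 21.4% and 54.0% in epithelial, and 31.2% and 55.2% in mesenchymal cells. The pairs thus kept one order in 3CK, PSMB9 highest and PSMB10 lowest, and in CNT PSMB10 was highest and PSMB9 lowest, in both classes.

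The mesenchymal share was also high without the barcodes that held leukocyte transcripts. Mesenchymal barcodes without a UMI of PTPRC, TYROBP or LAPTM5 (403 CNT and 38 3CK cells, an alternative chosen after seeing the data) had shares of 20.5% and 58.9% (57.3 to 60.6). In those, PSMB9 stood at 28.6 and 591 CPM and PSMB8 at 64.2 and 530.6 CPM. Requiring that absence also selects shallow cells, with a median of 1352 UMIs in CNT and 23864.5 in 3CK.

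The share was next read cell by cell, in cells with at least 10000 UMIs and at least 50 UMIs of the 6 genes. Among 412 CNT epithelial cells the median was 6.58%, the lowest 0 and the highest 40.7%. Among 604 3CK epithelial cells the lowest was 1.89%, the median 61.7% and the highest 84.0%, and 535 cells (88.6%) were above 50%. Few of the 3CK cells that passed these minimums reached into the CNT range. Of the 604, 22 (3.64%, 2.30 to 5.46) lay at or below the highest CNT cell. In the other direction 365 of the 412 CNT cells lay at or above the lowest 3CK cell. Each of these counts depends on 1 extreme cell. At or below the 95th percentile of the CNT cells lay 7 of the 604. In mesenchymal cells the medians were 19.4% (136 CNT cells, highest 53.9%) and 62.1% (95 3CK cells, lowest 6.90%). There 18 of the 95 lay at or below the highest CNT cell and 3 CNT cells were above 50%. Cells of 1 library are not replicates, and the minimum of 50 UMIs leaves out shallow cells. That minimum also counts the inducible genes, so cells rich in them pass it more easily. Of the epithelial cells with at least 10000 UMIs, 412 of 1013 CNT and 604 of 730 3CK cells passed. In mesenchymal cells 136 of 311 and 95 of 106 did. The overlap counts and the share of cells above 50% hold for the passing cells only.

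**Figure D3:**
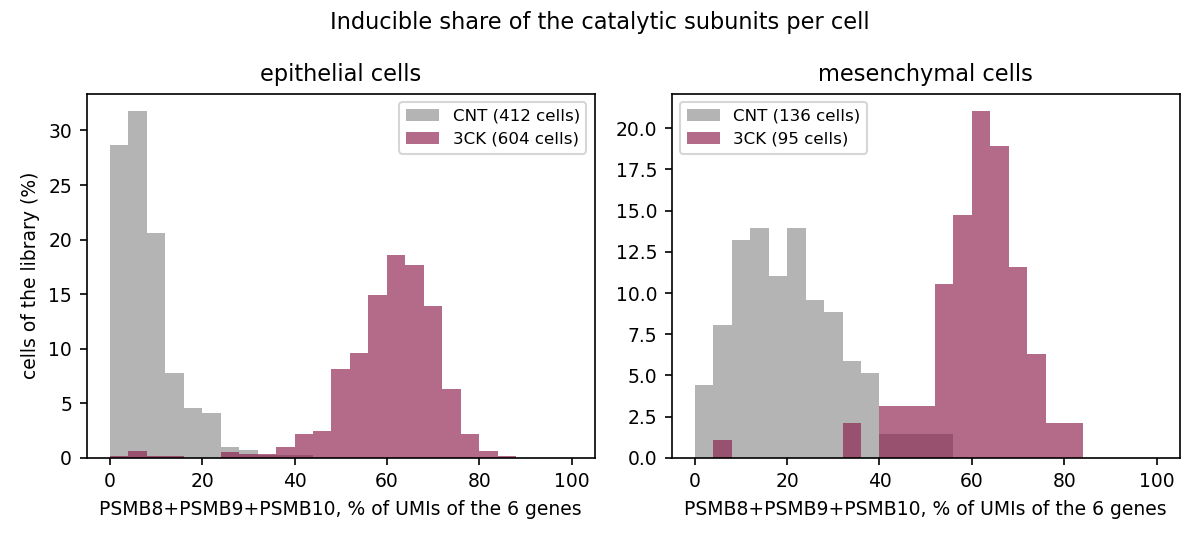
Distribution over cells of the percent of UMIs of the 6 catalytic genes that belong to PSMB8, PSMB9 and PSMB10, in CNT (grey) and 3CK (dark red) cells. Only cells with at least 10000 UMIs and at least 50 UMIs of the 6 genes are shown. The epithelial medians are 6.58% and 61.7% and the mesenchymal ones 19.4% and 62.1%, with more overlap in the mesenchymal panel.

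Detection in cells also set the libraries apart. After thinning each cell to 5000 UMIs (1062 CNT and 776 3CK epithelial cells kept, 598 and 240 shallower ones left out), 8 CNT epithelial cells (0.753%) and 84.9% of 3CK cells had a PSMB9 UMI. Unthinned, the shares were 5.84% and 87.5%. PSMB8 was seen in 5.18% and 80.8%, PSMB10 in 17.6% and 66.6%, and the standard PSMB5 in 58.8% and 71.8% of thinned epithelial cells. In mesenchymal cells (320 and 107 thinned, 254 and 17 left out) the shares were 15.3% and 83.2% for PSMB9 and 29.7% and 85.1% for PSMB8. No cell class is known to lack these genes, so free RNA was gauged from others at the same depth: the stromal DCN was seen in 8.29% and 3.22% of epithelial cells, and EPCAM in 6.88% and 5.61% of mesenchymal cells, whose definition limits it. The epithelial definition sets no collagen maximum, and 497 CNT and 49 3CK epithelial cells passed the collagen minimum. The DCN shares can thus hold stromal transcripts of such barcodes as well as free RNA. The CNT shares of PSMB9 and PSMB8 in epithelial cells lay below that of DCN in the same cells (median 67290 UMIs before thinning). The gauge cannot separate free RNA from expression, and these shares are not read as expression. They are not shown to be background either, since DCN stood at 1210 CPM in mesenchymal and 51.2 CPM in epithelial CNT cells, a wider gap than that of PSMB8 (72.6 and 13.1 CPM) or PSMB9 (27.5 and 2.47 CPM). This limits how exactly their ratios are known. The mesenchymal CNT shares lay above that of EPCAM, which says little because the definition keeps EPCAM low. The hepatic markers TTR and APOA1, which it does not limit, were seen far more often in thinned mesenchymal cells. TTR was seen in 97.8% of CNT and 75.7% of 3CK cells, and APOA1 in 66.9% and 40.2%. Transcripts abundant in epithelial cells were thus common in mesenchymal barcodes, and more so in CNT.

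**Figure D4:**
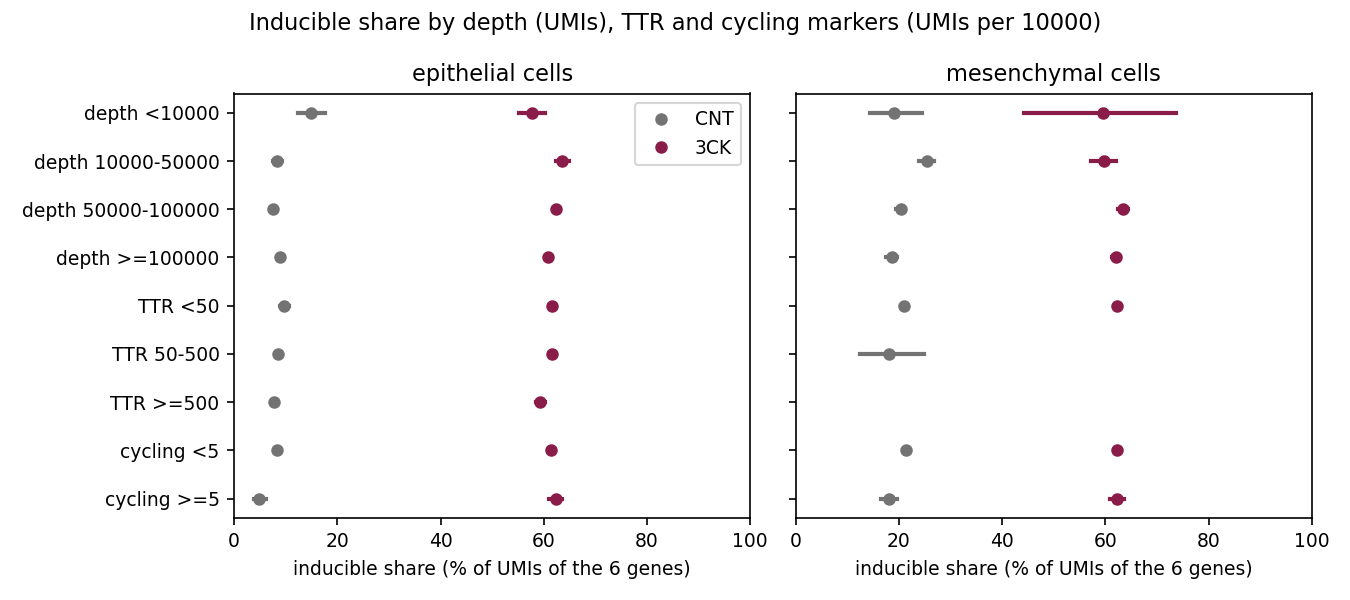
Inducible share of the 6 catalytic genes in strata of epithelial and mesenchymal cells by depth, TTR level and cycling markers, with exact 95% binomial intervals. The 3CK epithelial strata lie between 57.8% and 63.6% and the CNT epithelial strata between 4.86% and 14.9%.

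Depth and the hepatic signal differed between the libraries, so the share was read in strata of both. In 3CK epithelial cells it ran from 57.8% under 10000 UMIs to 63.6% between 10000 and 50000 UMIs. With TTR under 50, from 50 to 500, and at 500 or more per 10000, it was 61.6%, 61.5% and 59.3%. In CNT the share was 14.9% (12.4 to 17.7) in the shallowest cells and from 7.60% to 8.79% in the deeper ones, and by TTR it was 9.71%, 8.52% and 7.73%. The 22 CNT epithelial cells with at least 5 cycling-marker UMIs per 10000 had 4.86% and the 19 such 3CK cells 62.3%.

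Within 3CK epithelial cells the inducible subunits went together, and they also went with the standard ones. Over 689 cells thinned to 20000 UMIs, Spearman's rho was 0.583 for PSMB8 with PSMB9, 0.533 for PSMB9 with PSMB10 and 0.600 for PSMB9 with PSME2. The remaining inducible pair, PSMB8 with PSMB10, had 0.481. The standard pairs had 0.514 (PSMB5 with PSMB6), 0.402 (PSMB6 with PSMB7) and 0.301 (PSMB5 with PSMB7). Pairs of an inducible and a standard catalytic gene ran from 0.332 (PSMB8 with PSMB7) to 0.505 (PSMB9 with PSMB6). All these values were above 0, and most standard and mixed pairs lay below the inducible ones. PSME2 had 0.488 with PSMB5, 0.542 with PSMB6 and 0.382 with PSMB7. Median UMIs per thinned cell were 9, 11 and 5 for PSMB8, PSMB9 and PSMB10. For PSMB5, PSMB6 and PSMB7 they were 5, 6 and 5, and the part of such counts in rho was not tested. In mesenchymal 3CK cells (103 thinned) PSMB9 had 0.508 with PSMB10 and 0.506 with PSMB5, and PSMB8 had 0.610 with PSMB9 and 0.407 with PSMB10. All these cells share 1 library, and their total is fixed by the thinning.

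Among the caps, both PA28 genes were called higher in both classes and the other caps in neither. PSME2, the β chain, had 9986 and 61958 UMIs in epithelial cells, 131 and 884 CPM, and a log2 ratio of 2.75 (2.72 to 2.78). In mesenchymal cells it reached 1233 CPM from 268 CPM (2.20). PSME1, the α chain, was at 101.5 and 442 CPM in epithelial (2.12) and 158 and 467 CPM in mesenchymal cells (1.57). Their sum had a log2 ratio of 2.51 (2.49 to 2.53) in epithelial and 2.00 (1.96 to 2.04) in mesenchymal cells. The genes lie on chromosome 14 with 4394 bases between them, and 6 annotated pseudogenes carry the name of PSME2, so reads shared with those copies make its counts uncertain.

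PSME3, the nuclear PA28γ, was at 34.6 and 58.4 CPM in epithelial (log2 0.75) and at 37.9 and 60.7 CPM in mesenchymal cells (0.68). PSME4, a large nuclear cap linked to histone breakdown, stood apart from the other caps. It was at 36.5 and 39.0 CPM in epithelial cells (0.10, 0.02 to 0.17), a sign that turned with stricter markers (-0.0001) and with the total without the most abundant genes (-0.02). In mesenchymal cells it was at 52.8 CPM (CNT) and 29.3 CPM (3CK) (-0.85, -1.05 to -0.65), the lowest ratio of all members there, and -0.23 with equal weight per cell. PSME1 and PSME2 together made up 76.6% and 93.2% of the UMIs of the 4 caps in epithelial and 82.4% and 94.97% in mesenchymal cells.

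The remaining subunits of the barrel and its regulatory particle were mostly higher in 3CK, by a smaller amount that varied between genes. The 34 standard genes were 7 α, 7 β, 6 ATPases and 14 PSMD genes, of which PSMD5, PSMD9 and PSMD10 encode assembly factors. Their median log2 ratio was 0.38 in epithelial and 0.40 in mesenchymal cells, against medians of 0.07 and -0.12 over all genes. Single standard genes ran from -0.36 to 1.76 in epithelial and from -0.13 to 1.48 in mesenchymal cells. In each class 33 of 34 were above 0. Under the total without the most abundant genes this was 31 in epithelial cells, and under TMM 34 in mesenchymal cells. Above the median of all genes were 32 and 33 of 34, under each of the 3 scalings. Past 2-fold were 3 of 34 in epithelial (8.82%) and 2 of 34 in mesenchymal cells (5.88%), close to the shares of all genes. Summed, the 34 took 4742 and 6840 CPM in epithelial cells, a 1.44-fold difference, and 5555 and 7932.5 CPM in mesenchymal cells, 1.43-fold.

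The α ring, which forms the barrel's gate, had the highest ratios among standard subunits (medians 0.79 and 0.66). PSMA6 led in both classes, at 169 and 573 CPM in epithelial (log2 1.76) and 204 and 569 CPM in mesenchymal cells (1.48). It lies on chromosome 14 at 35278633-35317493, and 4 pseudogenes carry its name. PSMA4 was at 148 and 323 CPM in epithelial cells (1.13), and at 1.12 on the log2 scale in mesenchymal cells. PSMA1 passed the fold in epithelial cells alone (1.05 against 0.66), and that call was lost under the total without the most abundant genes. PSMA7, the most abundant α gene, had the smallest ratio of the ring, 0.36 (447 and 573 CPM) and 0.24 (536 and 633 CPM).

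Of the β subunits without a cutting site, PSMB2 had the largest ratio in both classes, 0.99 (116 and 230 CPM) and 0.72. PSMB1, the most abundant at 368 and 444 CPM in epithelial cells, had the smallest, 0.27 and 0.36. The 6 ATPases, which unfold substrates, had medians of 0.39 and 0.38 with none past 2-fold. PSMC4 was highest in epithelial (0.61) and PSMC1 in mesenchymal cells (0.53), and PSMC5, the most abundant, had 0.18 in epithelial cells (129 and 146 CPM). For PSMC1, 13 pseudogenes carry its name.

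The 14 PSMD genes, most of them for the other subunits of the regulatory particle, had medians of 0.28 and 0.29. PSMD11, a scaffold subunit, was highest in epithelial cells at 0.63, followed by PSMD14, the particle's deubiquitinating enzyme, at 0.62. In mesenchymal cells PSMD3 was highest at 0.49. PSMD8, the most abundant, was at 305 and 326 CPM in epithelial cells (0.10). PSMD5, an assembly factor for the ATPase base, was the sole standard gene below 0 in epithelial cells, at 26.0 and 20.3 CPM (-0.36), and stood at -0.13 in mesenchymal cells, where its sign turned with TMM factors (0.05) and without the leukocyte-positive barcodes (0.0976).

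The inhibitor PSMF1, also known as PI31, was at 49.1 and 82.6 CPM in epithelial (0.75) and 73.6 and 90.7 CPM in mesenchymal cells (0.30). The 4 assembly chaperones of the α ring differed among themselves. PSMG4 had 0.98 in epithelial cells (35.5 and 69.9 CPM, and 1.01 with TMM factors) and 0.45 in mesenchymal cells, and PSMG3 had 0.48 and -0.20. PSMG1 had 0.03 and -0.07 and PSMG2 0.07 and -0.01, and neither kept its sign in either class. Over the alternatives PSMG1 ran from -0.28 to 0.06 in epithelial and from -0.13 to 0.65 in mesenchymal cells, and PSMG2 from -0.12 to 0.10 and from -0.07 to 0.18. PSMA8, a germ cell α subunit, had 19 and 16 UMIs in epithelial and 24 and 17 in mesenchymal cells. PSMB11, the thymus subunit, had 1 UMI in each epithelial sum and 0 in each mesenchymal sum, where the 3-UMI limit is 0.153 CPM in CNT and 0.329 CPM in 3CK. All 48 members together took 0.536% of UMIs in CNT and 1.00% in 3CK epithelial cells, and 0.658% and 1.17% in mesenchymal cells.

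The classes differed most in PSMB9 and PSMB8. The log2 ratio of PSMB9 was larger in epithelial than in mesenchymal cells by 3.35 (3.11 to 3.59) and that of PSMB8 by 2.25, and the difference was 0.61 for PSMB10 and 0.55 for both PSME1 and PSME2. PSME4 (0.95), PSMG3 (0.68) and PSMG4 (0.53) were the other members over 0.5. For the 34 standard genes it ran from -0.23 to 0.40, and for 17 of them the counting interval included 0. On the log2 scale the epithelial level of PSMB9 over the mesenchymal one was -3.48 in CNT and -0.13 in 3CK. These values were -2.47 and -0.22 for PSMB8, -0.999 and -0.39 for PSMB10, and -1.03 and -0.48 for PSME2. The larger epithelial ratios thus went with lower CNT levels. For PSMB9 that level rests on 188 UMIs (2.47 CPM), and the CNT epithelial detection of PSMB9 and PSMB8 was not read as expression above. Over the alternatives the epithelial log2 ratio ran from 7.58 to 9.11 for PSMB9 and from 4.19 to 5.57 for PSMB8. These ranges are wider than the counting intervals. With 1 library per group none of the differences between classes was tested across replicates.

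Companion genes were read from lists chosen with earlier results known. Of 14 peptide-loading genes, which carry proteasome products to MHC class I, 11 were past 2-fold in epithelial (median log2 3.29) and 10 in mesenchymal cells (1.94). The shares of all genes past it, 7.88% and 4.8%, apply to this list and those that follow. TAP1, the peptide transporter that faces PSMB9 across a shared promoter region, was at 9.18 and 579 CPM in epithelial (5.98) and at 22.0 and 400 CPM in mesenchymal cells (4.18). B2M, the most abundant, had 2.96 and 2.13, and the chaperone CANX had -0.03 and -0.04. Of the interferon signal genes 8 of 10 in epithelial (median 1.70) and 4 of 9 in mesenchymal cells (0.46) were past 2-fold, with IRF1, a transcription factor of this response, highest at 4.51 and 3.08.

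Genes that serve the proteasome without being part of it differed less. None of the 9 helper genes with enough counts in epithelial cells and none of 10 in mesenchymal cells was past 2-fold (medians 0.28 and 0.04). POMP, the factor that completes the barrel, had the largest ratio, 0.85 in epithelial (416 and 749 CPM) and 0.71 in mesenchymal cells, and UCHL5 the smallest in epithelial cells (-0.02). For a list of this size the shares of all genes come to under 1 gene. Of 7 genes that regulate proteasome transcription 3 were past 2-fold in epithelial and 1 in mesenchymal cells, with NFE2L1, which raises proteasome genes when proteasome activity falls short, at 1.11 and 0.42 and MAFF at 1.45 and 1.39. None of 13 ubiquitin and shuttle genes was past 2-fold in either class (medians 0.10 and 0.08), with RPS27A at -0.33 and -0.24.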

How the data were processed

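The files the authors deposited give a raw UMI count for each gene in each barcode, made with Cell Ranger 7.1.0 on GRCh38 per the submitters' processing notes. Annotation, use of strand and handling of intronic reads: not given in the sources used here. Barcodes with under 500 genes (412 CNT, 52 3CK) or over 20% mitochondrial UMIs (306 and 175) were left out, as were the highest Scrublet scores at 0.8% per 1000 barcodes (52 and 16; scanpy 1.11.5, Python 3.11.15). UMIs were summed per class and library and scaled to CPM by all UMIs, of which 3 UMIs are 0.0394 (CNT) and 0.0428 (3CK) CPM in epithelial cells. Sums carry exact Poisson, shares Clopper-Pearson and ratios binomial-derived 95% intervals (scipy 1.17.1). Of these only the ratio intervals were checked on simulated data, which were Poisson counts. Differences between classes carry delta-method intervals. All these intervals cover counting error only, and no test was possible with 1 library per group. TMM factors came from edgeR 4.0.16. Of the 48 members 46 had at least 10 CPM in either library of each class, and 17 have a named pseudogene in GENCODE 44.

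Members and lists were chosen with earlier results of these data known. Values are given for PSMB5 to PSMB10, the PSME, PSMF and PSMG genes and, per structural group and companion list, for the most abundant gene and those with the largest and smallest ratios. PSMA4, PSMA1 and PSMD14, and the companion genes that are neither an extreme nor the most abundant of their list, were named after their values were seen. Marker lists also covered endothelial genes (20.7 and 27.8 CPM in epithelial, 36.0 and 14.8 CPM in mesenchymal cells of CNT and 3CK), neural genes (233 and 331, 208 and 119 CPM), pluripotency genes (38.2 and 27.4, 4.84 and 2.85 CPM), cycling genes (48.0 and 61.6, 192 and 291 CPM) and stress genes (225 and 321, 357 and 373 CPM). Alternatives varied the cell and depth filters, doublet removal, class thresholds, cell weights and scaling.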

Additional observations from a re-analysis of the deposited data

Results flagged for a closer look

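PSME4, the nuclear cap, was slightly higher in 3CK than in CNT epithelial cells and lower in mesenchymal cells, a difference between the classes of 0.95 on the log2 scale (counting interval 0.74 to 1.15). The epithelial value of 0.10 has a sign that depends on the scaling and on the class markers, so the opposite directions are not secure. PSMG3, an assembly chaperone, had log2 ratios of 0.48 and -0.20, a difference of 0.68. Neither difference was tested, since each class has 1 library per condition.

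Barcodes that met neither class definition were outside the comparisons. In 253 such CNT barcodes (median 12865 UMIs) the inducible share of the 6 catalytic genes was 14.5% (13.3 to 15.7), and in 258 such 3CK barcodes (median 26663.5 UMIs) it was 61.3% (60.7 to 61.9). PSMB9 stood there at 10.3 and 534 CPM.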

How the results depend on the processing

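No paired analysis was possible because each condition has 1 library, and for the same reason no replicate could be left out. Of the 49 alternative values for the main results none changed direction, and 17 moved by more than the counting interval of the reported value. The median of the standard genes in epithelial cells (0.38) was 0.35 with equal weight per cell and 0.27 with the total without mitochondrial, ribosomal and the 50 most abundant genes. In mesenchymal cells (0.40) it was 0.58 with TMM factors and 0.56 without barcodes holding a PTPRC, TYROBP or LAPTM5 UMI, an alternative chosen after seeing the data. The inducible share difference in epithelial cells (53.0 points) was 49.7 with equal weight and 54.4 with stricter markers, and in mesenchymal cells (41.5 points) 38.4 without the leukocyte-positive barcodes. The PA28 ratio in epithelial cells (2.51) was 2.42 with equal weight, 2.61 with stricter markers, 2.54 with TMM and 2.39 without the most abundant genes. In mesenchymal cells (2.00) it was 2.05 with no filter on cells, 1.91 with at least 1000 genes and at most 10% mitochondrial UMIs, 2.16 with equal weight, 2.18 with TMM, 1.96 without the most abundant genes and 1.86 without the leukocyte-positive barcodes. Of 323 alternative values for single genes 16 had the other sign. In 4 of these the counting interval of the reported value excluded 0: epithelial PSME4 with stricter markers (-0.0001) and without the most abundant genes (-0.0206), and epithelial PSMG2 with equal weight (-0.12) and without the most abundant genes (-0.0516). In the other 12 it included 0: epithelial PSMG1 (down to -0.28 with equal weight) and mesenchymal PSMG1 (up to 0.65 without the leukocyte-positive barcodes), PSMG2 and PSMD5. Beside the first 4, 93 values lay outside the counting interval of the reported value. The cause was not tested. Depth limits PSMB9 and PSMB8 most in CNT, where their epithelial sums rest on 188 and 998 UMIs.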
